A study of Mus musculus with 12 samples.

Results

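The 10 genes described here encode the core chaperones and proteases that keep mitochondrial proteins folded and remove those that fail to fold. They were taken by name from the 26921 gene identifiers of the count table, and all 10 were found. Hspd1, Hspe1, Hspa9 and Trap1 encode chaperones of the mitochondrial matrix. Lonp1, Clpp and Clpx encode matrix proteases or their ATPase, and Afg3l2, Yme1l1 and Oma1 encode proteases of the inner membrane. Expression was measured by RNA-seq in left ventricular tissue of 16-week-old mice, with 6 libraries from WT mice and 6 from cmGch1 KO mice. Mice of both genotypes had floxed Gch1 alleles (Gch1 flox/flox). The cmGch1 KO mice also had the α-MHC-Cre+/- transgene, in which the α-MHC promoter drives Cre recombinase in cardiomyocytes. Libraries from mice with the α-MHC Cre transgene and no floxed allele were not analysed here, so that loss of Gch1 and presence of Cre cannot be told apart. Gch1 encodes GTP cyclohydrolase I, which is required for synthesis of tetrahydrobiopterin.

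Most mitochondrial proteins are made in the cytosol, imported unfolded and folded in the matrix by mtHsp70 and by the Hsp60 and Hsp10 chaperonin. Misfolded or oxidised proteins are degraded by ATP-dependent proteases in the matrix and on both faces of the inner membrane. When this capacity is exceeded, a nuclear programme known as the mitochondrial unfolded protein response raises transcription of chaperones and proteases. In mammals ATF5, ATF4 and CHOP are the factors most often linked to it, and OMA1 relays mitochondrial stress to ATF4 by cleaving DELE1. The heart is rich in mitochondria and depends on this machinery throughout life. The comparison therefore asked whether the machinery differed between ventricles with and without cardiomyocyte Gch1.

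Gch1 itself was checked first. Its expression in cpm, the counts scaled to library size by the TMM method of edgeR, was between 9.27 and 12.1 in WT and between 3.92 and 6.32 in cmGch1 KO libraries, with no overlap. This was a log2 fold change of -0.96 (SE 0.11), with an FDR of 6.88e-04 by the quasi-likelihood test of edgeR, adjusted by the Benjamini-Hochberg method. Whole tissue was sequenced, and the sources used here do not say that the libraries came from sorted cells. The 8 ventricular cardiomyocyte markers together had 62400 to 66050 cpm in WT and 56310 to 60320 cpm in cmGch1 KO libraries, without overlap, and none of the 8 passed the test. The 6 macrophage markers summed to 131.6 to 168.3 cpm in WT and 165.1 to 207.8 cpm in cmGch1 KO libraries. In the other marker lists the summed ranges of the genotypes overlapped, and Nppa and Acta2 were the genes called, both higher in cmGch1 KO. The part of these markers in the members' values was not tested, and in whole tissue fewer cells of a type and less RNA per cell cannot be told apart. Xist was over 10 cpm in 2 of the 12 libraries, cmGch1 KO replicates 2 and 3, which had no Y-linked counts. The other 10, with all WT libraries among them, had at most 0.234 cpm of Xist and 167 to 192 cpm of Y-linked genes. The labels give no sex, but this is the pattern of 2 female and 10 male mice, so sex is partly mixed with genotype. Mitochondrially encoded genes held 14.9% and 16.1% of counts in cmGch1 KO replicates 2 and 3 and 18.3% to 22.9% in the other libraries. Without those 2 libraries the log2 fold change of Hspe1 was -0.38, and those of the other 9 members lay between -0.17 and 0.0014; no member was called.

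Hspd1 and Hspe1 are transcribed away from each other from 1 shared region of chromosome 1 (GRCm38). Hspd1 lies at 55077835 to 55088243 on the minus strand, Hspe1 lies at 55088132 to 55091307 on the plus strand, and their gene models share 112 bases. Of the other genes, Yme1l1 lies on chromosome 2 (23156369 to 23199260), Oma1 on chromosome 4 (103313812 to 103371868), Clpx on chromosome 9 (65294260 to 65330658), Clpp and Lonp1 on chromosome 17 (56990305 to 56996188 and 56614297 to 56626887) and Trap1 on chromosome 16 (4039971 to 4077827). Promoter sequences, from 250 bases before to 50 bases after the start, were matched in RefSeq (GRCm38.p6) for 8 of the 10 members, with 2 starts for Hspd1. Heat shock factors bind inverted repeats, which were searched on both strands as GAANNTTC and as TTCNNGAA. Before the start of Hspe1, and inside the Hspd1 gene model, 3 such matches overlapped in 1 run of 18 bases. The sequences that held a searched element other than CCAAT follow with 30 bases each, 5′ to 3′ on the strand of the gene. Their matched bases are in capitals.
Hspe1, chr1:55088053-55088082, plus strand: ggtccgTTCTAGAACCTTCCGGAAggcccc
Hspd1, same bases, minus strand: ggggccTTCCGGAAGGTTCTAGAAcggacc
Clpp, chr17:56990284-56990313, plus strand: ccgggtgttgtagTTCCGGAAgccaagccg
Trap1, chr16:4077839-4077868, minus strand: gtcgcgcgccaTGACGTCActgagccgccc
Clpx, chr9:65294163-65294192, plus strand: ttagtctccacGCATGCGCagcgtaaactc
The run of 18 bases began 89 bases before the RefSeq start of Hspe1 and lies in the first exon of 1 annotated Hspd1 transcript. The match in Clpp was 8 bases long. It stood after the RefSeq start of the gene, but just before the start of the gene model given above (56990305). Of all 32851 promoters searched, 7.86% held GAANNTTC and 8.52% held TTCNNGAA. TGACGTCA, the cyclic AMP response element, was found in 1.79% of all promoters and among the members in that of Trap1. GCATGCGC, the core bound by nuclear respiratory factor 1, was found in 2.71% of all promoters and among the members in that of Clpx. TGATGNAA, the core shared by CHOP and ATF4 sites, was in 3.97% of all promoters and in none of the 9 member promoters searched. CCAAT was in 37.4% of all promoters and in those of Clpx, Hspd1 and Yme1l1. These matches describe letters in the sequence and do not show binding.

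Per kilobase of the longest principal transcript of GENCODE M21, Hspa9 had the highest level of the 10 genes, with 265 ± 18.5 cpm per kb in WT libraries (SD, n = 6). Hspd1 followed with 179 ± 15.8 and Hspe1 with 126 ± 37.5 cpm per kb. The 3 genes that form the folding line of the matrix thus had higher means than all proteases measured. Trap1, the mitochondrial Hsp90, had 69.4 ± 1.51 cpm per kb and overlapped in range with Lonp1 at 66.7 ± 4.28 cpm per kb. Lonp1 in turn overlapped with Afg3l2 at 62.7 ± 3.95, Afg3l2 with Clpp at 51.6 ± 7.27, and Clpp with Clpx at 44.1 ± 1.83 cpm per kb. Yme1l1 had 20.8 ± 0.775 and Oma1 15.9 ± 0.740 cpm per kb, and both ranges were separate from that of the gene above. In cmGch1 KO libraries the order was the same, except that Lonp1 at 68.0 ± 6.77 stood before Trap1 at 67.1 ± 3.89 cpm per kb, and these ranges overlapped. The range of Hspe1 in cmGch1 KO libraries, from 65.2 cpm per kb, overlapped that of Lonp1, which reached 74.1 cpm per kb. The order depends on the length used. Over all annotated exons Hspe1 had 66.2 ± 19.7 cpm per kb in WT libraries. In cmGch1 KO libraries it had 55.4 ± 12.4 cpm per kb, below Trap1 at 60.5 and overlapping in range with Lonp1. Over all annotated exons Afg3l2 (9874 bases against 3094 in the principal transcript) stood at 19.6 ± 1.24 cpm per kb in WT libraries, below Clpx, and Yme1l1 stood below Oma1.

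For none of the 10 members did a difference between genotypes pass the test. With an FDR under 0.05 by edgeR's quasi-likelihood test, 0 of 10 were called, against 1.12% of the 11225 genes tested, and the members' FDR values lay between 0.656 and 0.981. At an unadjusted p under 0.05 the count was also 0 of 10, against 11.5% of all genes, and by the Wald test of DESeq2 no member passed the FDR threshold either. For 0 of 10 members were all libraries of 1 genotype apart from those of the other, against 1.87% of all genes. The log2 fold change was below 0 for 9 of 10 members, and for 3 of 10 when libraries were scaled by total counts alone; 53.3% and 30.1% of all genes were below 0 under these scalings. The members' median was -0.05 and that of all genes -0.01. The intervals limit how large a difference could be: for 7 members the 95% interval lay within 0.25 on either side of 0 on the log2 scale, and for 9 within 0.5. All 10 members passed the filter on low counts, with 630 counts or more in each library.

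**Figure D1:**
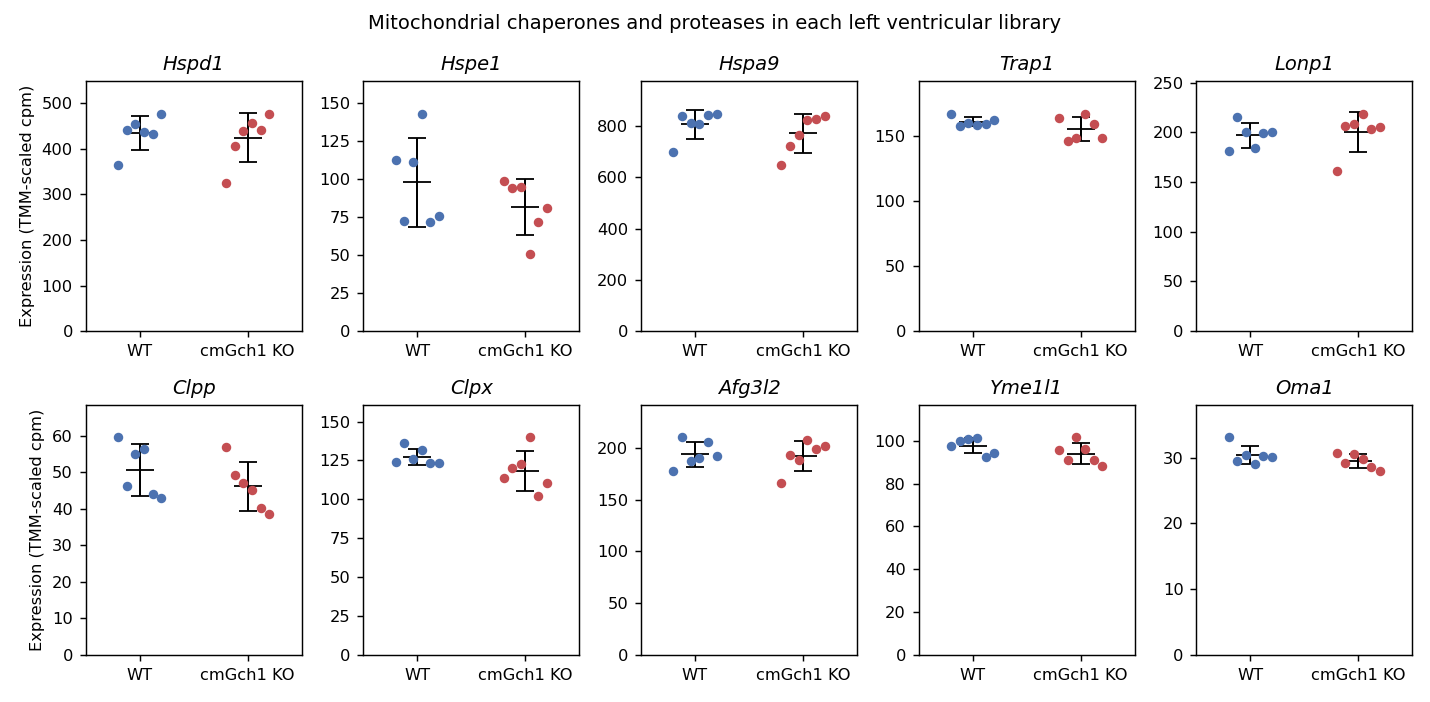
Expression of each member in every library, in TMM-scaled cpm on axes that start at 0, with 6 WT (blue) and 6 cmGch1 KO (red) libraries per panel in order of replicate number and black bars for mean ± SD. The genotypes overlap in every panel, and Hspe1 and Clpp scatter most among libraries of 1 genotype.

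Hspd1 encodes Hsp60, the barrel in which matrix proteins fold. Its expression ranged from 364 to 477 cpm in WT (median 439) and from 325 to 476 cpm in cmGch1 KO libraries (median 440). The lowest library of each genotype was replicate 1, and the other libraries of both genotypes lay between 407 and 477 cpm. Between genotypes the log2 fold change was -0.04 (SE 0.09, 95% interval -0.23 to 0.16), and without cmGch1 KO replicate 1 it was 0.03. A processed copy, Hspd1-ps3, had 123 to 271 counts per library beside at least 7958 for Hspd1.

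Hspe1 encodes Hsp10, the lid of the barrel. Its expression ranged from 71.96 to 143 cpm in WT (median 93.3) and from 50.5 to 98.4 cpm in cmGch1 KO libraries (median 87.5). WT libraries fell into 3 under 76 cpm (72.2, 71.96 and 75.8) and 3 above 110 cpm (112, 111 and 143), so the genotype held a range of 1.98-fold. The log2 fold change of -0.26 was the largest in size among the members, with the widest error (SE 0.19, 95% interval -0.67 to 0.16, FDR = 0.706 by edgeR's quasi-likelihood test). As a change in percent, the interval runs from -37.3% to 11.5%. Single libraries moved the value: without WT replicate 4 it was -0.12 and without cmGch1 KO replicate 4 it was -0.15, below the size of Clpx in the same fit, and over all 12 fits that left out 1 library it ran from -0.33 to -0.12. Within genotypes the SD of log2 cpm was 0.39 for Hspe1 against a median of 0.19 for all tested genes, at percentile 94.4.

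Hspa9 encodes mtHsp70, which pulls proteins through the import channel and folds them. Its expression ranged from 697 to 848 cpm in WT (median 823) and from 648 to 839 cpm in cmGch1 KO libraries (median 794). Replicate 1 was again the lowest of each genotype. This gave a log2 fold change of -0.07 (SE 0.08, 95% interval -0.23 to 0.10).

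Trap1 was the steadiest of the chaperones, with an SD of log2 cpm within genotypes of 0.06 (percentile 1.48 of tested genes). It ranged from 158 to 167 cpm in WT (median 160) and from 146 to 167 cpm in cmGch1 KO libraries (median 154). cmGch1 KO replicates 2, 3 and 6, at 146, 148 and 149 cpm, lay below all WT libraries, and the other 3 lay within the WT range. The genotypes differed by a log2 fold change of -0.05 (SE 0.05, 95% interval -0.17 to 0.07).

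Lonp1 encodes the AAA+ protease that degrades oxidised and misfolded matrix proteins. It was the 1 member with a log2 fold change above 0, at 0.03 (SE 0.08, 95% interval -0.14 to 0.19). Its expression ranged from 181 to 216 cpm in WT (median 200) and from 161 to 219 cpm in cmGch1 KO libraries (median 206). In cmGch1 KO replicate 1 it was lower than in any other library, and in the other 5 it was between 203 and 219 cpm.

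Clpp encodes the proteolytic chamber of the ClpXP protease. It ranged from 42.9 to 59.6 cpm in WT (median 50.6) and from 38.5 to 57.1 cpm in cmGch1 KO libraries (median 46.1), and 5 of 6 cmGch1 KO libraries were below the WT median. For Clpp the log2 fold change was -0.14 (SE 0.11, 95% interval -0.37 to 0.10). Replicate 1 had the highest Clpp of each genotype, the opposite of Hspd1, Hspa9 and Lonp1.

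Clpx encodes the ATPase that unfolds substrates and feeds them into ClpP. It ranged from 123 to 136 cpm in WT (median 125) and from 102 to 140 cpm in cmGch1 KO libraries (median 117). In 5 of 6 cmGch1 KO libraries Clpx was lower than in every WT library, and cmGch1 KO replicate 4 was higher than every WT library. For Clpx it was -0.11 (SE 0.07, 95% interval -0.26 to 0.05), with the smallest p of the members (FDR = 0.656 by edgeR's quasi-likelihood test). Without cmGch1 KO replicate 4 it was -0.16, with an unadjusted p of 0.0256 and an FDR of 0.339 by the same test.

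The inner membrane proteases varied little. Afg3l2, a subunit of the m-AAA protease that faces the matrix, ranged from 177 to 210 cpm in WT (median 191) and from 166 to 207 cpm in cmGch1 KO libraries (median 196), with a log2 fold change of -0.01 (SE 0.07, 95% interval -0.15 to 0.13). Yme1l1, the i-AAA protease that faces the intermembrane space, ranged from 92.6 to 101 cpm in WT (median 98.8) and from 88.3 to 102 cpm in cmGch1 KO libraries (median 93.4). Its log2 fold change was -0.06 (SE 0.05, 95% interval -0.17 to 0.06), and 3 cmGch1 KO libraries lay below the WT range. Oma1, the stress-activated protease that cleaves OPA1 and DELE1, ranged from 29.0 to 33.1 cpm in WT (median 30.2) and from 27.9 to 30.7 cpm in cmGch1 KO libraries (median 29.5). Its log2 fold change was -0.04 (SE 0.06, 95% interval -0.17 to 0.08). The SD of log2 cpm within genotypes was 0.06 for both Yme1l1 and Oma1, at percentiles 1.7 and 1.1 of tested genes.

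**Figure D2:**
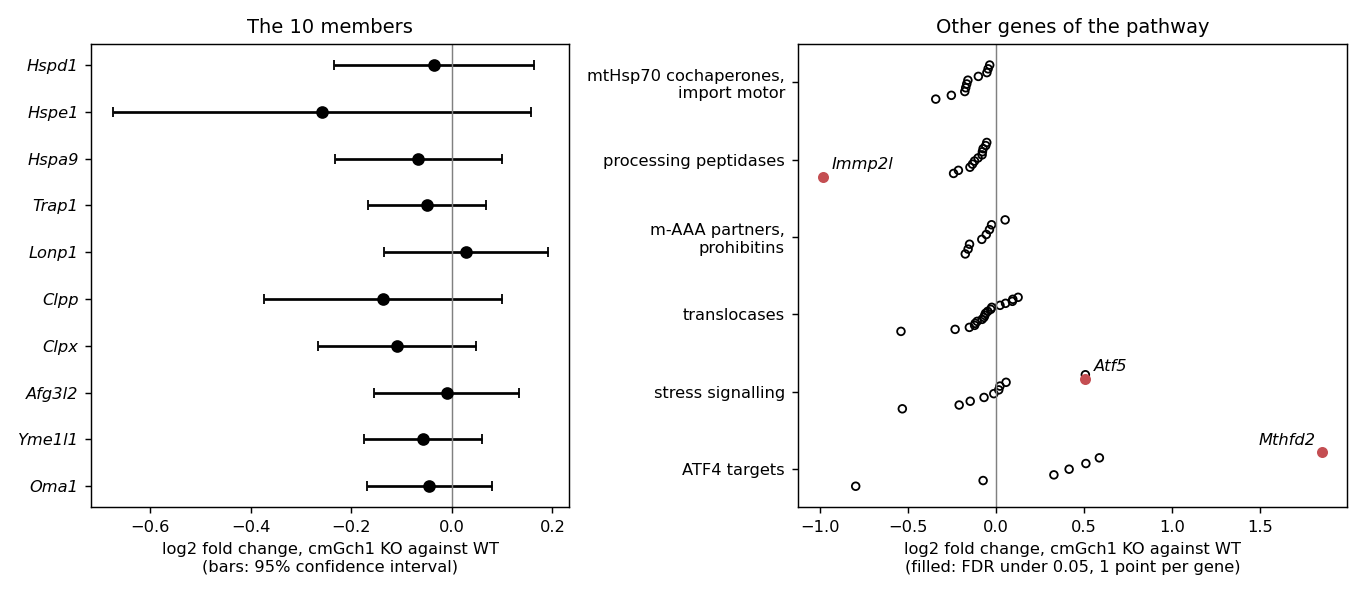
Log2 fold changes between genotypes, cmGch1 KO relative to WT, with 95% intervals for the members (left), and for the other tested genes of the pathway by list (right; filled points have an FDR under 0.05). All 10 intervals on the left include 0, and on the right Immp2l is lower and Atf5 and Mthfd2 are higher.

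Partners of 1 complex were also set against each other within each library, where library scaling cancels. A feature of the libraries described below, with which Hspe1 and Clpp rose and Hspd1 fell, does not cancel. The ratios were not adjusted for it. The log2 ratio of Hspd1 to Hspe1 was 2.20 ± 0.48 in WT and 2.40 ± 0.50 in cmGch1 KO libraries (SD, n = 6, two-sided exact permutation test, p = 0.446). The difference of 0.20 was 0.04 without cmGch1 KO replicate 4, 0.08 without WT replicate 4, 0.10 without WT replicate 1 and 0.33 without cmGch1 KO replicate 1. The log2 ratio of Clpx to Clpp was 1.34 ± 0.21 in WT and 1.36 ± 0.22 in cmGch1 KO libraries (exact permutation test, p = 0.866). Afg3l2 was compared with Spg7, which encodes the other m-AAA subunit. Their log2 ratio was 0.60 ± 0.12 in WT and 0.67 ± 0.14 in cmGch1 KO libraries (exact permutation test, p = 0.372). Adjusted over the 3 ratios by the Benjamini-Hochberg method these exact p-values were 0.669, 0.866 and 0.669. The share of counts from mitochondrially encoded genes was 21.2 ± 1.60% in WT and 19.4 ± 3.17% in cmGch1 KO libraries (exact permutation test, p = 0.255). Without cmGch1 KO replicates 2 and 3 the difference in this share, -1.77 percentage points, was 0.176.

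The members did not vary as 1 group. After removal of genotype means, 23 of the 45 pairs correlated positively over the 12 libraries and 22 negatively, with a median Pearson r of 0.05. For 6 pairs Pearson's r had an adjusted p under 0.05 (permutation test within genotype, 100000 permutations, Benjamini-Hochberg over 45 pairs), and for 2 of these Spearman's rho did as well. Each gene of these 6 pairs also correlated with a feature of the libraries described below. The pairs were not tested with that feature removed. Hspd1 and Hspa9 varied together (r = 0.94, rho = 0.83, permutation p = 4.9e-04 and 0.00124, adjusted p = 0.00975 and 0.0279). Their r was 0.92 within WT and 0.95 within cmGch1 KO libraries, and 0.75 without the 2 libraries farthest from the median of Hspd1. For the other pairs, too, the 2 farthest libraries were taken from 1 gene, the one that comes first in the opening list of members. They can thus differ between pairs, and extremes of the other gene were not considered. Hspa9 and Clpp ran against each other (r = -0.87, rho = -0.87, both with permutation p = 1e-05, the smallest that 100000 permutations can give, and adjusted p = 4.5e-04). Within WT their r was -0.78, within cmGch1 KO libraries -0.94, and without the 2 farthest libraries -0.76.

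The other 4 pairs passed by Pearson's r but not by Spearman's rho. Afg3l2 correlated with Lonp1 (r = 0.88, rho = 0.64, permutation p = 0.00237 and 0.0273, adjusted p = 0.0213 and 0.123) and with Hspa9 (r = 0.87, rho = 0.71, permutation p = 6.5e-04 and 0.0084, adjusted p = 0.00975 and 0.0756). Without the 2 farthest libraries these r were 0.59 and 0.57. Clpp correlated negatively with Afg3l2 (r = -0.79, rho = -0.72, permutation p = 0.00482 and 0.0171, adjusted p = 0.0361 and 0.0855) and with Hspd1 (r = -0.77, rho = -0.71, permutation p = 0.00192 and 0.0159, adjusted p = 0.0213 and 0.0855). Without the 2 farthest libraries these r were -0.68 and -0.52. Other pairs of these genes did not pass, and their r rested on the 2 farthest libraries: without them r went from 0.83 to 0.15 for Hspd1 and Lonp1, from 0.78 to 0.06 for Hspd1 and Afg3l2, from 0.78 to 0.22 for Hspa9 and Lonp1, and from -0.67 to -0.28 for Lonp1 and Clpp.

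**Figure D3:**
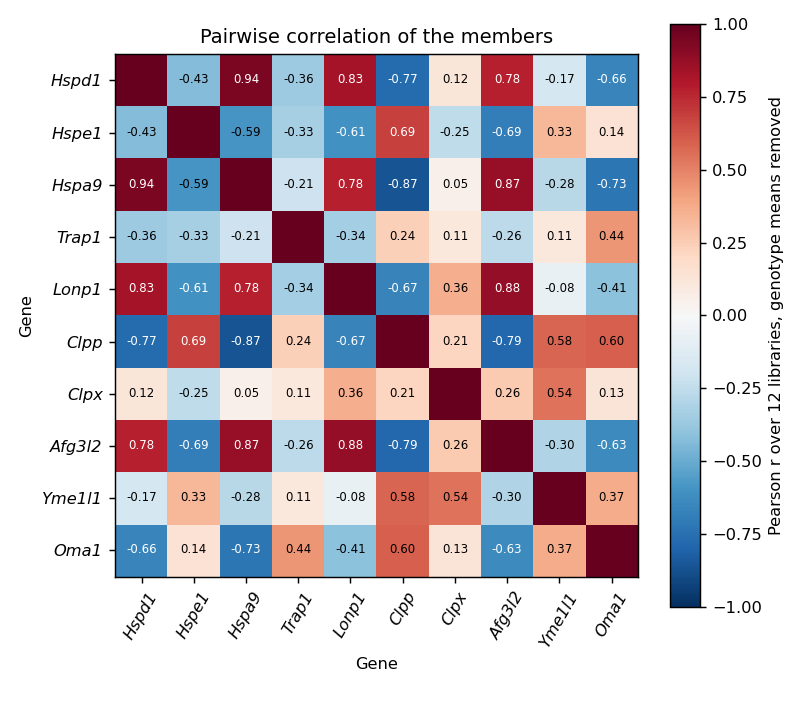
Pearson r of log2 cpm for each pair of members over the 12 libraries after removal of genotype means, on a colour scale from -1 to 1. Hspd1, Hspa9, Lonp1 and Afg3l2 have positive values with each other, and Clpp is negative against all 4, though 4 of these 10 pairs did not pass the test.

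Hspd1 and Hspe1, which share the region shown above and form 1 chaperonin, were not among these pairs (r = -0.43, rho = -0.52, permutation p = 0.176 and 0.0996, adjusted p = 0.36 and 0.264). Clpp and Clpx had an r of 0.21 (rho = 0.27, permutation p = 0.556 and 0.435, adjusted p = 0.698 and 0.675). Among the 11225 genes tested, the gene most like Hspd1 over the 12 libraries was Zfp568 (r = 0.97), with Hspa9 at rank 30 and Hspe1 at rank 7604. The gene most like Hspa9 was Ppig (r = 0.99), that most like Lonp1 was Tlk2 (r = 0.98), and that most like Afg3l2 was Zfp369 (r = 0.96). The gene most like Hspe1 was Rps16-ps2 (r = 0.98), a pseudogene whose reads may come from its parent gene. That most like Clpp was Clybl (r = 0.98). Clpx was closest to Fbxo21 (r = 0.94), Trap1 to Dcaf15 (r = 0.91), Yme1l1 to Ift46 (r = 0.91) and Oma1 to Prcp (r = 0.92). For none of the 10 members was another member the closest gene. These r share the same 12 libraries and describe likeness over these libraries only.

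The spread of Hspe1 and Clpp moved with a feature of the libraries. A short-transcript score was formed for each library after the data were seen, as the median centred log2 cpm of 175 protein-coding genes whose exons span under 1000 bases; none of the members is among them. The score ran from -0.43 in cmGch1 KO replicate 4 to 0.42 in cmGch1 KO replicate 1, and from -0.23 to 0.38 in WT libraries. With genotype means removed, it correlated positively with Hspe1 (r = 0.92, rho = 0.94, permutation p = 4e-04 and 2.2e-04, adjusted p over 10 members = 0.00143 and 0.0022) and with Clpp (r = 0.88, rho = 0.79, permutation p = 0.0026 and 0.00756, adjusted p = 0.0052 and 0.0189). Without the 2 libraries farthest from the median of the score both r were 0.96. It correlated negatively with Afg3l2 (r = -0.86, rho = -0.83, permutation p = 4.3e-04 and 0.00232, adjusted p = 0.00143 and 0.00973) and Hspa9 (r = -0.83, rho = -0.76, permutation p = 4.2e-04 and 0.00292, adjusted p = 0.00143 and 0.00973). Without the 2 farthest libraries these r were -0.79 and -0.75. The r of Lonp1 was -0.79 (rho = -0.65, permutation p = 0.00152 and 0.0234, adjusted p = 0.0038 and 0.0468) and that of Hspd1 -0.72 (rho = -0.65, permutation p = 0.00895 and 0.0321, adjusted p = 0.0149 and 0.0535), or -0.71 and -0.58 without the 2 farthest libraries. The r of Trap1, Clpx, Yme1l1 and Oma1 with the score lay between -0.18 and 0.40, and none passed the adjustment. The pairs of members that passed above were all formed by Hspd1, Hspa9, Lonp1, Afg3l2 and Clpp. Clpp rose with the score and the others fell with it, and the pairs had the signs that go with this. Whether the pairs hold apart from the score was not tested. Hspe1 and Clpp have the shortest principal transcripts of the members, 774 and 983 bases, and those of the other 8 span 1915 to 4707 bases. With the score as a covariate the log2 fold change of Hspe1 was -0.14 (SE 0.08) and that of Clpp -0.09 (SE 0.06), and neither was called.

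**Figure D4:**
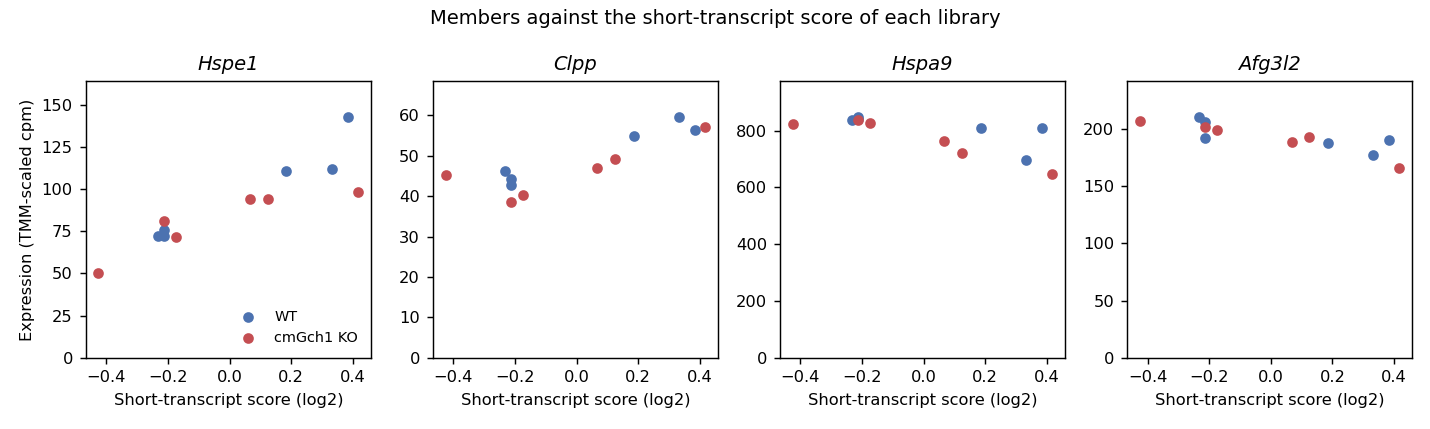
Expression of Hspe1, Clpp, Hspa9 and Afg3l2 in cpm against the short-transcript score (log2) of each of the 12 libraries, WT in blue and cmGch1 KO in red. Hspe1 and Clpp are higher and Hspa9 and Afg3l2 lower in libraries with a high score.

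Other genes of the pathway were taken from lists of cochaperones and import motor, processing peptidases, m-AAA partners with prohibitins, and translocases. Of the 50 genes on these 4 lists 48 were tested, and 42 had a log2 fold change below 0, or 28 of 48 when libraries were scaled by total counts alone. Of all genes 53.3% and 30.1% were below 0 under these scalings. The count was 35 of 48 with the short-transcript score as covariate, and also 35 without WT replicate 4. The FDR of edgeR's quasi-likelihood test was under 0.05 for 1 of the 48, in the lower direction, against 0.445% of all genes. This was Immp2l, a subunit of the inner membrane peptidase that removes sorting signals from imported proteins. Its expression ranged from 11.5 to 17.5 cpm in WT (median 14.2) and from 5.01 to 10.7 cpm in cmGch1 KO libraries (median 6.71), with no overlap, as for 0.802% of all genes in the lower direction. Immp2l fell by 0.99 on the log2 scale (SE 0.17, FDR = 0.00860 by edgeR's quasi-likelihood test). It was called in each of 12 fits that left out 1 library, and without cmGch1 KO replicates 2 and 3 its FDR by the same test was 0.0585 with a log2 fold change of -1.04.

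At an unadjusted p under 0.05 there were 4 of 48 genes lower, against 4.51% of all genes, and 0 higher. Beside Immp2l these were Mipep, Clpb and Timm23. Mipep, which encodes a peptidase that trims imported proteins, ranged from 81.0 to 97.8 cpm in WT and from 70.4 to 89.9 cpm in cmGch1 KO libraries (log2 fold change -0.21, SE 0.07). Clpb, which encodes a disaggregase, ranged from 82.3 to 93.0 cpm in WT and from 70.8 to 83.2 cpm in cmGch1 KO libraries (log2 fold change -0.16, SE 0.06). Timm23, which encodes the channel of the inner membrane translocase, ranged more widely, from 91.4 to 267 cpm in WT and from 97.7 to 186 cpm in cmGch1 KO libraries (log2 fold change -0.54, SE 0.23). Their FDR values by edgeR's quasi-likelihood test were 0.223, 0.280 and 0.369. All 10 cochaperones and import motor genes had values below 0, with a median of -0.16, from -0.34 for Dnajc15 to -0.04, and 7 of 10 did when libraries were scaled by total counts alone, beside 53.3% and 30.1% of all genes. The median was -0.11 for the 12 peptidases tested, -0.07 for the 8 m-AAA partners and prohibitins and -0.06 for the 18 translocase genes tested, or -0.039, 0.0060 and 0.013 with scaling by total counts alone.

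The factors that signal mitochondrial stress gave 1 call among 10 genes, against 0.677% of all genes called higher. Atf5, which encodes a transcription factor of the mitochondrial unfolded protein response, rose by 0.50 on the log2 scale (SE 0.11, FDR = 0.0438 by edgeR's quasi-likelihood test). It ranged from 57.8 to 72.8 cpm in WT (median 63.4) and from 71.6 to 119 cpm in cmGch1 KO libraries (median 84.8), with 1 cmGch1 KO library inside the WT range. The call was near the threshold. It held in 3 of 12 fits that left out 1 library and was lost without any 1 of WT replicates 2 to 6 or cmGch1 KO replicates 2 to 5, with log2 fold changes from 0.41 to 0.53 and FDR values from 0.0646 to 0.134 by the same test. Without cmGch1 KO replicates 2 and 3, the highest for Atf5, the log2 fold change was 0.33 and the FDR 0.183. Dele1, whose product OMA1 cleaves, ranged from 141 to 175 cpm in WT and from 122 to 152 cpm in cmGch1 KO libraries (log2 fold change -0.21, SE 0.07, FDR = 0.213 by edgeR's quasi-likelihood test). Trib3 had a log2 fold change of 0.51 (SE 0.26) and an unadjusted p of 0.0702 in the same fit.

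Of 12 targets of ATF4 7 were tested, and 1 was called, in the higher direction, against 0.677% of all genes. Mthfd2, a mitochondrial enzyme of folate metabolism, ranged from 2.75 to 4.28 cpm in WT (median 3.62) and from 6.87 to 16.0 cpm in cmGch1 KO libraries (median 14.2), with no overlap, as for 1.07% of all genes in the higher direction. It rose by 1.85 on the log2 scale (SE 0.20, FDR = 6.39e-04 by edgeR's quasi-likelihood test) and was called in all 12 fits that left out 1 library. From the deposited normalized values the log2 fold change was 1.18, also called. Aldh18a1 and Psat1, enzymes of proline and serine synthesis, had log2 fold changes of 0.33 (SE 0.10) and 0.59 (SE 0.18) with FDR values of 0.156 and 0.169 by the same test. At an unadjusted p under 0.05, 5 of the 7 were higher, against 7.01% of all genes: these 3, Chac1 and Sesn2, and Ddit4 was lower. This count covers the tested targets only, and the targets left untested have no value. The list was chosen with earlier results of these data known, so the count describes these genes and is not a test of the list. A gene near 3 cpm can pass the filter on low counts through 1 genotype alone, so the count may depend on the filter. For Psat1 the WT median (2.86 cpm) lay below that limit and the cmGch1 KO median (4.51 cpm) above it. Chac1, Sesn2 and Ddit4 were named after their values were seen. With genotype means removed, the r of Mthfd2 with the 10 members over the 12 libraries lay between -0.23 and 0.36, and by permutation test 0 of 10 had an adjusted or unadjusted p under 0.05. Without cmGch1 KO replicates 2 and 3 the r with Trap1 went from 0.14 to 0.71, which was not tested. The share of mitochondrially encoded counts also had 0 of 10 under either threshold by permutation test, with r between -0.49 and 0.61. The highest, with Trap1, was 0.06 without cmGch1 KO replicates 2 and 3.

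**Figure D5:**
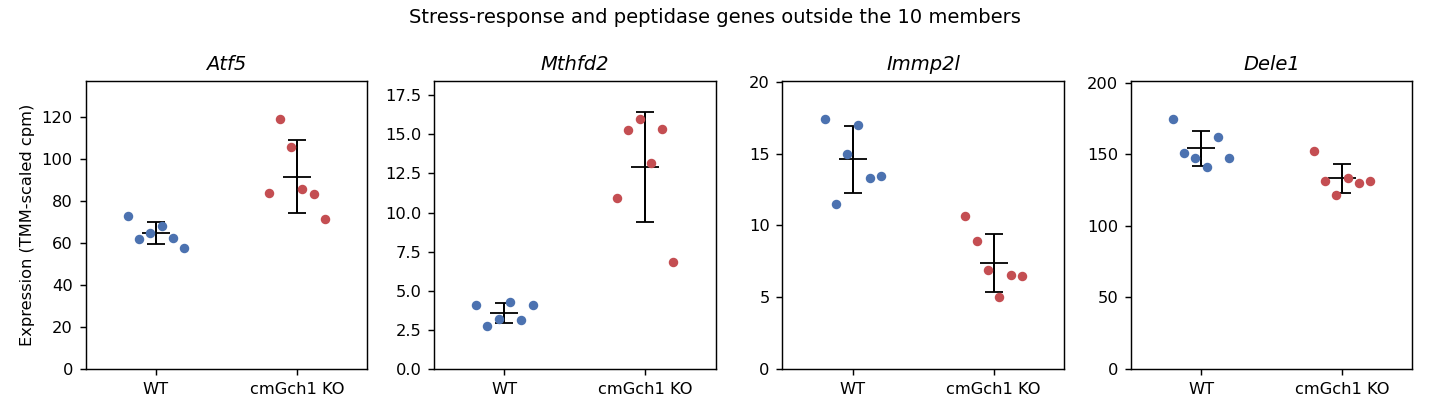
Expression of Atf5, Mthfd2, Immp2l and Dele1 in every library, in TMM-scaled cpm on axes that start at 0, with 6 WT (blue) and 6 cmGch1 KO (red) libraries and black bars for mean ± SD. The genotypes are apart for Mthfd2 and Immp2l and overlap for Atf5 and Dele1.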

How the data were processed

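Left ventricular RNA from 6 WT and 6 cmGch1 KO mice was sequenced from stranded paired-end libraries. Groups and replicate numbers came from the labels, and the study's methods take the single animal as n. The authors deposited raw counts per Ensembl gene, without normalization, and a second table of normalized values on a log2 scale, used here for 1 alternative. The submitters' processing notes name HISAT2, SAMtools and the build GRCm38, and the paper's methods name featureCounts. Which annotation was counted, and whether by strand, is not given in the sources used here, so reads in the 112 bases shared by Hspd1 and Hspe1, or the 54 bases shared by Trap1 and Dnase1, may be split between them. Symbols, positions and transcript lengths came from GENCODE M21 (26545 of 26921 identifiers matched).

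Totals were 19921398 to 37917806 counts per library. Within genotypes the chi-square per degree of freedom between libraries was at least 13.4, so none was a copy of another. Counts were tested with edgeR 4.0.16 in R 4.3.3: TMM scaling, a minimum of cpm over 3 in 6 or more libraries, quasi-likelihood test on genotype, Benjamini-Hochberg adjustment over 11225 genes, two-sided, FDR threshold 0.05. Intervals are 95%. Correlations used log2 cpm with a prior count of 2. The test was checked on simulated data. The members and lists were chosen with earlier results of these data known. Named genes are the members, Gch1, Spg7, Mthfd2, the called genes and the 3 with the smallest p in each wider list, and the gene closest to each member; not every gene that fits is named, and 3 named outside the rule are marked. Alternatives were DESeq2 1.42.0, other scalings and filters, the replicate block, sex-linked expression, 1 surrogate variable (sva 3.50.0), limma 3.58.1 on the deposited log2 values, leaving out libraries and, added after the data were seen, the short-transcript score.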

Additional observations from a re-analysis of the deposited data

Results flagged for a closer look

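In 36 groups of 6 libraries examined (the members, 4 other genes and the ratios in each genotype), 1 library stood apart by Dixon's criterion in 4 groups; chance alone gives about 1 in 20. Hspa9 was 697 cpm in WT replicate 1, against 809 cpm in the next lowest WT library. Lonp1 was 161 cpm in cmGch1 KO replicate 1, against 203 cpm in the next. Oma1 was 33.1 cpm in WT replicate 1, against 30.4 cpm in the next highest. The log2 ratio of Afg3l2 to Spg7 was 0.41 in cmGch1 KO replicate 1, against 0.67 in the next. These libraries had short-transcript scores of 0.33 (WT replicate 1) and 0.42 (cmGch1 KO replicate 1). WT replicate 4, with a higher score of 0.38, did not stand apart. Its Hspa9 was 809 cpm, and its Oma1, at 29.0 cpm, was the lowest of WT.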

How the results depend on the processing

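The number of members with an FDR under 0.05 was 0 under each of 24 alternatives, and the lowest FDR of any member under them was 0.0776 (Clpp, with 1 surrogate variable). At an unadjusted p under 0.05 the count was 0 of 10, and 1 with 1 surrogate variable (Clpp) and 1 without cmGch1 KO replicate 4 (Clpx); over the fits that left out 1 library it ranged from 0 to 1. Scaling by total counts alone moved the median log2 fold change of all genes to 0.07 and turned the signs of Hspd1 (0.043), Hspa9 (0.0099), Trap1 (0.023), Afg3l2 (0.066), Yme1l1 (0.019) and Oma1 (0.030). Lonp1 turned to -0.0020 with sex-linked expression and to -2.0e-04 with the short-transcript score as covariate. Without 1 library, Hspe1 ranged from -0.33 to -0.12, Hspd1 ranged from -0.082 to 0.030, Afg3l2 from -0.035 to 0.029, the difference in the log2 ratio of Hspd1 to Hspe1 from 0.044 to 0.33, that of Clpx to Clpp from -0.035 to 0.094, and that in mitochondrial share from -2.37 to -0.874 percentage points; without cmGch1 KO replicates 2 and 3 the last was 0.176. None of these had passed a test. Replicate numbers did not pair all of the libraries. Same-numbered libraries correlated in their deviations with r from -0.13 to 0.68, and 3 of 6 were closest to their own number. Whether the numbers mark a pairing is not given in the sources used here. With the replicate block 0 members and 188 genes were called, against 126 of all genes without it. That count was 636 with 1 surrogate variable, 443 with the short-transcript score, 373 by the Wald test of DESeq2, 64 with sex-linked expression, 34 without cmGch1 KO replicates 2 and 3, and 72 to 207 without 1 library. Mthfd2 was removed by the filter of cpm over 3 in every library and has no value there. Atf5 was not called with sex-linked expression (FDR 0.131, edgeR) or from the deposited log2 values (FDR 0.0543, limma). Depth was lowest for Oma1, with 630 to 1067 counts per library; the other members had at least 939.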
